A study of Mus musculus with 4 samples.

Results

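Erythroid globin and heme genes were followed across the 4 arrays of splenic dendritic cells (DC). The list holds 7 genes: Hba-a1, Alas2, Bpgm, Slc4a1, Ahsp, Klf1 and Car2. Every probe set annotated with exactly 1 of these symbols was taken, which gave 11 probe sets of 6 genes among 45037 probe sets and 17097 genes. Ahsp, which encodes a chaperone of alpha-globin, had no such probe set in the annotation used and was not analysed here. The cells came from spleens of mice aged 8 to 12 weeks, pooled from 5 to 6 animals, selected for CD11c and kept in culture overnight. The 4 conditions were MARCO-/- DC with LPS, MARCO-/- DC with PBS, WT DC with LPS and WT DC with PBS. LPS, a ligand of TLR4, was used at 100 ng/ml. MARCO-/- mice lack the scavenger receptor MARCO in all their cells, and the WT mice were bought in, matched for age and sex. The strain is spelt C56BL/6 in the labels of all samples and C57BL/6 in the methods. Each condition was measured on 1 array, so no value has a replicate error and no difference was tested. Genes were called by the threshold of the methods, a fold of at least 2 between 2 arrays.

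Red blood cells are made by erythroblasts, which in mice mature in the bone marrow and also in the red pulp of the spleen. During this maturation the nuclear factors GATA1 and KLF1 switch on the globin genes, the enzymes of heme synthesis and the proteins of the red cell membrane. Immature red cells that have lost the nucleus keep globin mRNA for a time. These genes are not among those that define DC, the cell type named on the labels.

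Promoter sequence was available for 4 of the 6 measured genes, and it is shown because the genes share regulators but did not share a pattern on the arrays. Each line gives the 250 bases before the start of the gene in RefSeq (mouse build GRCm38.p6). Capitals mark GATAA, a motif bound by GATA factors, and CACCC, a motif bound by KLF factors, on either strand (TTATC and GGGTG on the other strand). The positions are chr11:32283422-32283671 for Hba-a1, chrX:150547167-150547416 for Alas2, chr8:84901732-84901981 for Klf1 and chr6:34476106-34476355 for Bpgm, all on the plus strand.
Hba-a1: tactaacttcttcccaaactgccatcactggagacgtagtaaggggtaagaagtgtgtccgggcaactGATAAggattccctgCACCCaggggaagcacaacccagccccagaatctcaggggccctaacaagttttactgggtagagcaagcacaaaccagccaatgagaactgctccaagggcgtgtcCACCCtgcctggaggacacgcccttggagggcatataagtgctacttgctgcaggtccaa
Alas2: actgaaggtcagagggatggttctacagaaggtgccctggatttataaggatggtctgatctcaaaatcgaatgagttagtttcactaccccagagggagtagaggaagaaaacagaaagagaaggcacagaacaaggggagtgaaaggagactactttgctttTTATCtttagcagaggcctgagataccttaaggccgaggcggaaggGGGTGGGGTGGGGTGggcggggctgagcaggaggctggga
Klf1: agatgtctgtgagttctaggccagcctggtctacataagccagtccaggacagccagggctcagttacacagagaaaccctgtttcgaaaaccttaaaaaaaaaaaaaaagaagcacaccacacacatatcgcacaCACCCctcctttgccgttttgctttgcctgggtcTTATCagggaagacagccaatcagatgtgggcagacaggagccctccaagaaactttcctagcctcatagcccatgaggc
Bpgm: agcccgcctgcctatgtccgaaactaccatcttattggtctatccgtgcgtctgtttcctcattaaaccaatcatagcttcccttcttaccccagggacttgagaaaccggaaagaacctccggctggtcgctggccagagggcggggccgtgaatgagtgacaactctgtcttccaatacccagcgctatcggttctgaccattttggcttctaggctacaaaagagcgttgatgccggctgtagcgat
The Hba-a1 window held 1 GATAA and 2 CACCC. That of Alas2 held 1 GATAA, 82 to 86 bases before the start, and 3 CACCC on the opposite strand within 26 to 40 bases of it. That of Klf1 held 1 of each, and that of Bpgm held neither. Of 27025 promoter windows of this length, 23% held GATAA, 51.3% held CACCC and 10% held both. A match describes these letters alone. The window of Hba-a2, the neighbouring copy of alpha-globin, was identical to that of Hba-a1 over all 247 bases that the 2 windows share. The 3 Hba-a1 probe sets carry names that end in x_at or s_at, a mark of probes that match more than 1 transcript, so the values given for Hba-a1 may include Hba-a2.

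Intensities are those normalized by the authors with RMA, on a linear scale. The median of all intensities was 4.87, and values near it are background. The MHC class II gene H2-Aa had 5231 in MARCO-/- and 4999.8 in WT with PBS, and the CD11c gene Itgax had 621 in MARCO-/- and 548 in WT with PBS. The summed intensity of 15 DC markers was 18613 in MARCO-/- and 18077 in WT with PBS, and 7776 in MARCO-/- and 8426 in WT with LPS. With LPS, H2-Aa had 2035 in MARCO-/- and 3013 in WT, and Itgax had 16.4 in MARCO-/- and 12.9 in WT. Of the 15 markers, 8 were at least 2-fold lower with LPS and 2 higher in MARCO-/-, against 5.98% and 6.32% of all genes. In WT 7 were lower and 1 higher, against 8.31% and 6.2% of all genes. Transcripts such as H2-Aa, and the globin transcripts given below, were thus present on every array. Fewer cells of a type and less RNA per cell cannot be told apart in such bulk samples.

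Hba-a1 encodes the alpha chain of adult hemoglobin, and it was bright on all 4 arrays. Its brightest probe set had 6275 in MARCO-/- and 4372 in WT with PBS, and 6792 in MARCO-/- and 3971 in WT with LPS. Both MARCO-/- arrays were above both WT arrays, by 1.44-fold with PBS and 1.71-fold with LPS, which is under 2-fold. The highest intensity of any probe set lay between 6275 and 7065 on the 4 arrays, so this probe set was at the upper end of the scale. A second probe set had 4067 in MARCO-/- and 3101 in WT with PBS, and 4583 in MARCO-/- and 2885 in WT with LPS. The dimmest of the 3 had 307 in MARCO-/- and 159 in WT with PBS, and 315 in MARCO-/- and 166 in WT with LPS, close to 2-fold in both conditions (1.93-fold and 1.90-fold). The array of a genotype differed little with the treatment: the log2 ratio of LPS over PBS lay between 0.04 and 0.17 in MARCO-/- and between -0.14 and 0.06 in WT over the 3 probe sets. After quantile normalization the value of the brightest probe set in MARCO-/- was -0.07.

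**Figure D1:**
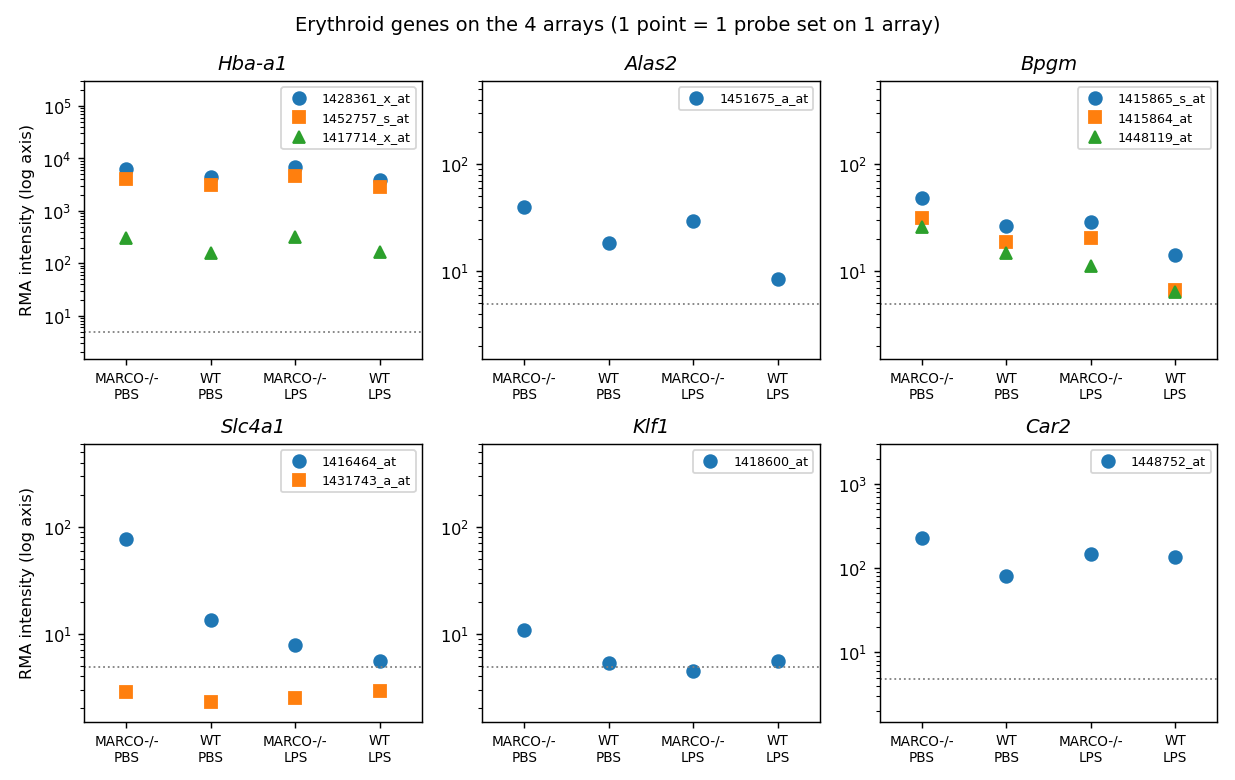
RMA intensity (log axis) of the 11 probe sets of 6 erythroid genes on the MARCO-/- PBS, WT PBS, MARCO-/- LPS and WT LPS arrays; each point is 1 probe set on 1 array, and the dotted line is the median of all intensities, 4.87. Hba-a1 was higher on both MARCO-/- arrays, Alas2 and Bpgm were lowest on the WT LPS array, and Slc4a1 had 76.7 on the MARCO-/- PBS array and 13.4 or less on the others.

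Alas2 encodes the erythroid form of aminolevulinate synthase, which carries out the first and rate-limiting step of heme synthesis. Its probe set had 39.5 in MARCO-/- and 18.2 in WT with PBS (2.17-fold higher), and 29.4 in MARCO-/- and 8.35 in WT with LPS (3.52-fold higher). Both MARCO-/- arrays were again above both WT arrays. The WT LPS value was not far over the background, and with an offset of 16 both genotype ratios fell under 2-fold. They were then log2 0.70 with PBS and 0.90 with LPS. With LPS Alas2 was 1.34-fold lower than with PBS in MARCO-/-, and 2.18-fold lower in WT. The WT ratio fell under 2-fold after quantile normalization (log2 -0.92) and after cyclic loess (-0.99).

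Bpgm encodes the enzyme that makes bisphosphoglycerate, the small molecule that lowers the oxygen affinity of hemoglobin. Its brightest probe set had 47.8 in MARCO-/- and 26.4 in WT with PBS (1.81-fold), and 28.6 in MARCO-/- and 14.1 in WT with LPS (2.03-fold). A second had 31.1 in MARCO-/- and 18.7 in WT with PBS, and 20.4 in MARCO-/- and 6.59 in WT with LPS (3.10-fold). The last had 26.1 in MARCO-/- and 14.7 in WT with PBS, and 11.2 in MARCO-/- and 6.40 in WT with LPS (1.75-fold). All 3 were higher in MARCO-/- in both conditions, and the WT LPS array was the lowest for each. With LPS they were 1.67-fold, 1.52-fold and 2.33-fold lower than with PBS in MARCO-/-, and 1.87-fold, 2.84-fold and 2.30-fold lower in WT. The WT LPS values of the 2 dimmer probe sets, 6.59 and 6.40, lay near the background, which sets their folds, and with an offset of 16 no Bpgm probe set passed 2-fold between genotypes with LPS or for LPS over PBS in WT. The call of the brightest probe set with LPS was lost after quantile normalization (log2 0.79) and cyclic loess (0.83).

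Slc4a1 encodes the chloride-bicarbonate exchanger that is the main membrane protein of red cells. Its bright probe set had 76.7 in MARCO-/- and 13.4 in WT with PBS (5.74-fold higher), and 7.90 in MARCO-/- and 5.54 in WT with LPS (1.43-fold). The MARCO-/- PBS array stood apart from the other 3. With LPS it was 9.71-fold lower than with PBS in MARCO-/- and 2.41-fold lower in WT, and both LPS values lay near the background, which sets these folds. The other Slc4a1 probe set had between 2.31 and 2.91 on all arrays, below the median of all intensities, and carried no difference past 2-fold. With the mean of both probe sets, the genotype log2 ratio with PBS was 1.41, against 2.52 for the bright one, and that of LPS over PBS was -1.74 in MARCO-/- and -0.47 in WT, where the call was lost. With an offset of 16 the genotype ratio was 1.66, and that of LPS over PBS was -1.96 in MARCO-/- and -0.45 in WT.

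Klf1 encodes the erythroid transcription factor that binds CACCC motifs. It had 10.9 in MARCO-/- and 5.37 in WT with PBS (2.02-fold higher), and 4.52 in MARCO-/- and 5.52 in WT with LPS. Only the MARCO-/- PBS value stood apart from the background, and it was itself low. The call with PBS was lost by centring the arrays on their medians and by quantile normalization, where it came just under 2-fold. With LPS it was 2.41-fold lower than with PBS in MARCO-/-, while the WT values differed by 1.03-fold. The MARCO-/- LPS value, 4.52, lay below the median of all intensities, which sets this fold. With an offset of 16 the log2 ratio of LPS over PBS in MARCO-/- was -0.39.

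Car2 encodes a carbonic anhydrase, which interconverts carbon dioxide and bicarbonate in red cells and is also made by other cell types. It had 230.5 in MARCO-/- and 81.0 in WT with PBS (2.85-fold higher), and 148 in MARCO-/- and 137 in WT with LPS (1.08-fold). The WT PBS array was the lowest for this gene, unlike the other members that were past 2-fold. With LPS it was 1.56-fold lower than with PBS in MARCO-/- and 1.69-fold higher in WT, both under 2-fold.

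Between genotypes with PBS, 4 of 11 erythroid probe sets passed 2-fold upward in MARCO-/- (Alas2, Slc4a1, Klf1 and Car2) and 0 passed it downward, where 0.513% of all probe sets were higher and 0.442% lower by this rule. All 11 had a log2 ratio above 0, as had 21561 of all 45037 probe sets. The 11 hold 3 probe sets each of Hba-a1 and Bpgm, so they are not 11 separate values. The median over the 6 genes was 1.07, against 0.01 over all genes. With LPS, 3 erythroid probe sets passed 2-fold upward in MARCO-/- (Alas2 and 2 of Bpgm) and 0 downward, where 1.86% of all probe sets were higher and 0.99% lower. The median over the 6 genes was 0.64, against 0.00 over all genes. Above 0 were 9 of 11 probe sets, and 20752 of all 45037. Alas2 was the one probe set past 2-fold in both conditions. The comparisons with PBS and with LPS use different arrays.

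For LPS over PBS, every call among these probe sets was downward. In MARCO-/-, 3 of 11 erythroid probe sets were at least 2-fold lower with LPS (Slc4a1, Klf1 and 1 of Bpgm) and 0 were higher, where 4.98% of all probe sets were lower and 5.14% higher. In WT, 4 were at least 2-fold lower with LPS (Alas2, 2 of Bpgm and Slc4a1) and 0 were higher, where 7.97% of all probe sets were lower and 4.59% higher. The median log2 ratio over the 6 genes was -0.69 in MARCO-/- and -0.52 in WT, against 0.00 and 0.05 over all genes. These comparisons share their PBS and LPS arrays with the genotype comparisons, so they are not independent of them.

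**Figure D2:**
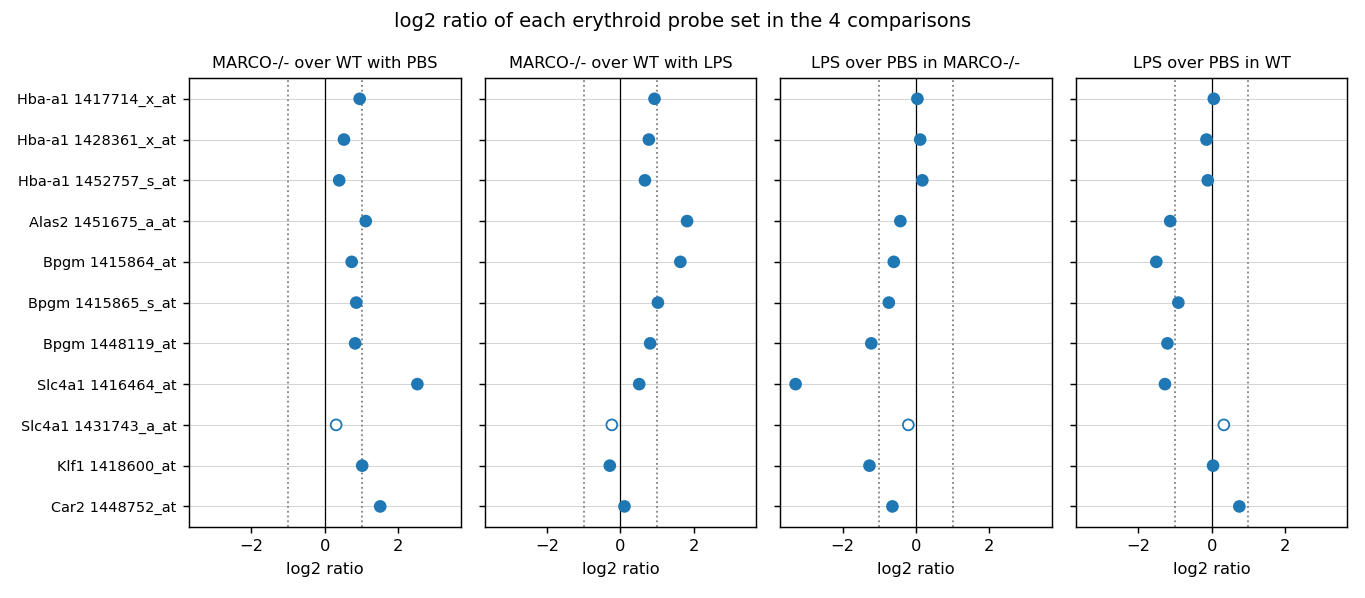
log2 ratio of the 11 erythroid probe sets in each of the 4 comparisons; each point is 1 probe set, open points are probe sets below the median of all intensities on every array, and the dotted lines mark 2-fold. With PBS all points lie above 0, up to 2.52 for Slc4a1, and in LPS over PBS the Hba-a1 points stay within -0.14 and 0.17 while Slc4a1 reaches -3.28 in MARCO-/-.

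The array with the highest value was MARCO-/- PBS for 7 of 11 probe sets, MARCO-/- LPS for the 3 of Hba-a1 and WT LPS for the dim one of Slc4a1. Among all probe sets with a value above the median of all intensities, MARCO-/- PBS was the highest array for 21%. The lowest array was WT LPS for 7 of the 11, against 34.4% of all such probe sets. The difference between the log2 LPS ratios of the genotypes, MARCO-/- minus WT, was -2.01 for Slc4a1, -1.40 for Car2 and -1.31 for Klf1. It was 0.70 for Alas2, 0.25 for Hba-a1 and 0.16 for Bpgm, and for Bpgm it turned to -0.14 after quantile normalization and -0.06 after cyclic loess.

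Other globins were measured by 5 genes beside Hba-a1, and none passed 2-fold in any comparison. Hbb-b2, an adult beta-globin, had 3707 in MARCO-/- and 2695 in WT with PBS, and 4087 in MARCO-/- and 2757 in WT with LPS. It thus followed Hba-a1, with log2 ratios of 0.46 with PBS and 0.57 with LPS. Its other 2 probe sets lay near the background, between 3.54 and 6.45. A probe set annotated to Hba-a2 alone was dim, with values between 6.35 and 10.8 on the 4 arrays. The embryonic globins Hba-x, Hbb-bh1 and Hbb-y had no value above the median of all intensities.

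Heme is built from glycine and succinyl-CoA in steps shared between mitochondria and cytosol. Of 8 measured genes of this pathway, Alas2 alone passed 2-fold between genotypes, in both conditions, where 0.76% of all genes were higher with PBS and 2.09% with LPS. Fech, which inserts the iron in the last step, had 95.2 in MARCO-/- and 70.9 in WT with PBS, and 52.7 in MARCO-/- and 34.5 in WT with LPS. It was 2.05-fold lower with LPS than with PBS in WT, and so were Ppox (2.09-fold) and Alas2, where 8.31% of all genes were lower and 6.2% higher. Cpox, which acts just before Ppox, went the other way: it had 47.6 with LPS and 13.3 with PBS in MARCO-/-, and 43.9 with LPS and 13.4 with PBS in WT. Alas1, the form of aminolevulinate synthase found in most cells, had 75.5 with LPS and 51.1 with PBS in MARCO-/-, and 65.7 with LPS and 28.7 with PBS in WT, past 2-fold in WT alone. The pathway thus held 3 genes at least 2-fold lower and 2 at least 2-fold higher with LPS in WT, and in MARCO-/- Cpox alone passed 2-fold.

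Of 18 measured genes of the red cell membrane, 4 passed 2-fold upward in MARCO-/- with PBS (Slc4a1, Aqp1, Ermap and Rhd) and 1 downward (Slc14a1), where 0.76% of all genes were higher and 0.287% lower. Ermap, a membrane protein of erythroid cells, had 14.6 in MARCO-/- and 4.55 in WT with PBS, and 4.33 in MARCO-/- and 5.11 in WT with LPS. Rhd, a blood group protein, had 8.18 in MARCO-/- and 3.39 in WT with PBS, and 3.39 in MARCO-/- and 2.84 in WT with LPS. Like Klf1, both had their one higher value on the MARCO-/- PBS array, and that of Rhd, 8.18, also lay near the background. Slc14a1, a urea transporter, had 33.7 in MARCO-/- and 79.4 in WT with PBS, and 3.43 in MARCO-/- and 4.14 in WT with LPS, and its other probe set also passed 2-fold with PBS. Gypc, which encodes glycophorin C, was 10.2-fold higher with LPS than with PBS in MARCO-/- and 5.71-fold higher in WT, and it is also made by leukocytes. With LPS over PBS in MARCO-/-, 6 genes of the list were at least 2-fold lower (Slc4a1, Aqp1, Ermap, Rhd, Rhag and Slc14a1) and Gypc was higher, where 5.98% of all genes were lower and 6.32% higher. In WT, 2 were lower (Slc4a1 and Slc14a1) and 2 higher (Gypc and Aqp1), where 8.31% of all genes were lower and 6.2% higher.

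Among 20 measured late erythroid genes, Hemgn, Rhd and Paqr9 passed 2-fold upward in MARCO-/- with PBS and 0 passed it downward, where 0.76% of all genes were higher and 0.287% lower. Hemgn, a nuclear protein of erythroid cells, had 14.5 in MARCO-/- and 3.53 in WT with PBS, and 2.59 in MARCO-/- and 2.62 in WT with LPS. The WT value with PBS and both LPS values were below the median of all intensities, so no fold is given. Paqr9 had 11.1 in MARCO-/- and 5.15 in WT with PBS, and 3.18 in MARCO-/- and 3.01 in WT with LPS. With LPS only Bpgm of this list passed 2-fold between genotypes. Epor, the receptor of erythropoietin, had 5.96 in MARCO-/- and 4.40 in WT with PBS, near the background. The median log2 ratio of the list was 0.39 with PBS and 0.22 with LPS.

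**Figure D3:**
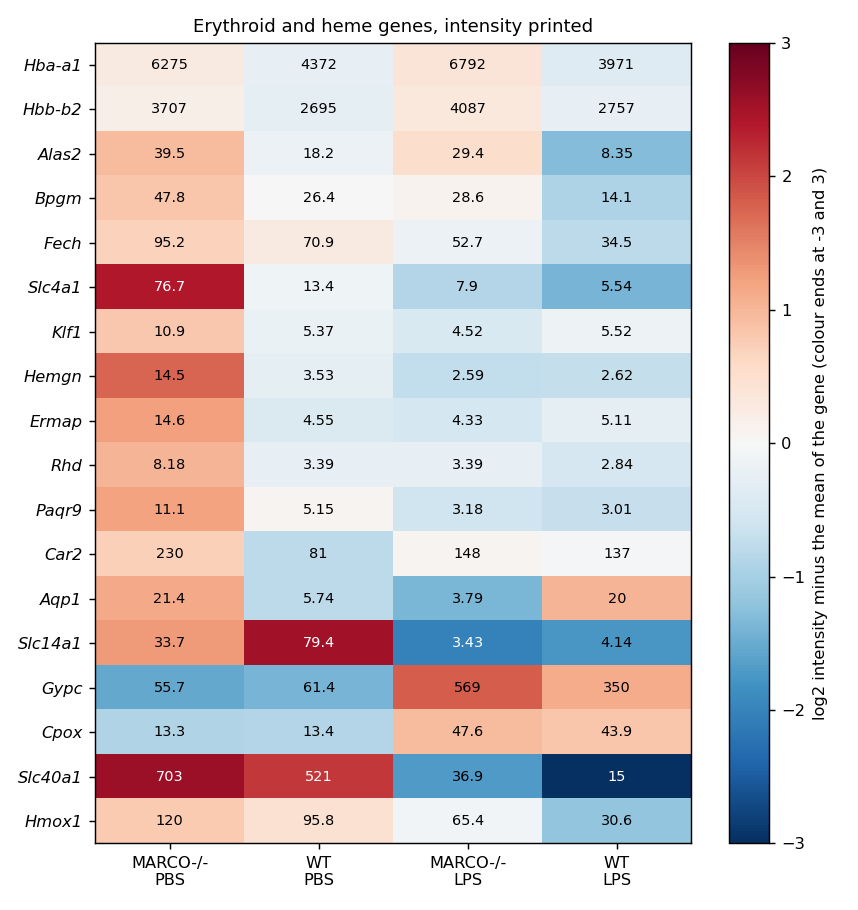
Intensity (printed) and log2 intensity minus the mean of each gene (colour) of 18 erythroid and heme genes, by the brightest probe set, on the MARCO-/- PBS, WT PBS, MARCO-/- LPS and WT LPS arrays. Slc4a1, Klf1, Hemgn, Ermap, Rhd and Paqr9 have their highest value on the MARCO-/- PBS array, whereas Hba-a1 and Hbb-b2 are highest on the MARCO-/- LPS array.

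Among 16 erythroid transcription factors, Klf1 alone was at least 2-fold higher in MARCO-/- with PBS, and Myb, which keeps progenitors dividing, was lower, with 8.24 in MARCO-/- and 16.8 in WT. By this rule 0.76% of all genes were higher and 0.287% lower. None of the factors passed 2-fold between genotypes with LPS. Tal1, a partner of GATA1, had between 3.95 and 5.69 on the 4 arrays, and Gata1 had no value above the median of all intensities. With LPS over PBS in MARCO-/-, 4 were at least 2-fold lower and Myb was 5.92-fold higher (48.8 with LPS and 8.24 with PBS), where 5.98% of all genes were lower and 6.32% higher. In WT, 6 were at least 2-fold lower and 0 higher, where 8.31% of all genes were lower and 6.2% higher. Lmo2 and Bcl11a, which are also made by DC or lymphocytes, were lower in both genotypes. Of 15 measured genes of iron uptake and heme transport, none passed 2-fold between genotypes with PBS. With LPS 2 were higher and 1 lower by the brightest probe set, where 2.09% of all genes were higher and 1.31% lower. Flvcr1, described as a heme exporter, was 2.12-fold higher and the iron-regulatory gene Aco1 2.23-fold higher in MARCO-/-. Slc25a37, which brings iron into mitochondria, gave opposite values from 2 bright probe sets. One had 37.9 in MARCO-/- and 77.1 in WT with LPS, and the other had 66.8 in MARCO-/- and 19.6 in WT. Its direction was therefore not settled by these arrays.

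Genes that recycle heme and iron are used by red pulp macrophages, which take up old red cells, but many of those listed are also made by other cells. Of 15 such genes none passed 2-fold between genotypes with PBS. With LPS, the heme oxygenase gene Hmox1 (65.4 in MARCO-/- and 30.6 in WT) and the iron exporter gene Slc40a1 (36.9 in MARCO-/- and 15.0 in WT) were higher in MARCO-/-. With LPS 2.09% of all genes were at least 2-fold higher. Slc40a1 had 702.6 in MARCO-/- and 521 in WT with PBS. Of 15 carbonic anhydrases, Car2 and Car3 were at least 2-fold higher in MARCO-/- with PBS, where 0.76% of all genes were. Car3 had 79.9 in MARCO-/- and 2.67 in WT with PBS, and 5.01 in MARCO-/- and 255 in WT with LPS, so it did not share the pattern of Car2. With LPS, Car3 and Car13 were at least 2-fold lower in MARCO-/-, where 1.31% of all genes were. Car13 had 4.69 in MARCO-/- and 3.52 in WT with PBS, and 157 in MARCO-/- and 323 in WT with LPS. Of 7 measured phosphoglycerate enzymes none passed 2-fold between genotypes with PBS, and Bpgm and Eno2 were higher in MARCO-/- with LPS.

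Markers of other cells also differed between these arrays. With PBS, 11 of 14 stroma and skeletal muscle markers passed 2-fold upward in MARCO-/- and 0 downward, where 0.76% of all genes were higher and 0.287% lower. Their summed intensities were 720 in MARCO-/- and 68.9 in WT. With LPS 12 of these markers were lower and 0 higher, where 1.31% of all genes were lower and 2.09% higher. The sums were 67.1 in MARCO-/- and 2233 in WT. On the WT PBS array 11 of these markers were at or below the median of all intensities. Aqp1, a water channel of red cells and endothelium, was 3.73-fold higher with PBS (21.4 in MARCO-/- and 5.74 in WT) and lower with LPS (3.79 in MARCO-/- and 20.0 in WT), as these markers were. By the brightest probe set, Alas2, Bpgm, Hba-a1, Slc4a1 and Car2 were above WT under both treatments. For Car2 the log2 ratio with LPS was only 0.11, and it was -0.003 after quantile normalization. Klf1 was the one member whose ratio changed sign, from 1.02 with PBS to -0.29 with LPS. Slc4a1, Klf1 and Car2 were past 2-fold with PBS alone. The part of the other cells in any of these values was not tested. The summed intensity of 15 red pulp macrophage markers was 3515 in MARCO-/- and 2225 in WT with PBS, with 2 at least 2-fold higher and none lower. It was 697 in MARCO-/- and 472 in WT with LPS, with 4 higher and 4 lower. The sums of 11 B cell markers were 2047 in MARCO-/- and 2585 in WT with PBS, with 1 lower, and 2020 in MARCO-/- and 2721 in WT with LPS, with 1 higher and 1 lower. Of 15 cell division genes, 1 was at least 2-fold higher in MARCO-/- with PBS (Kif11) and 1 with LPS (Ccnb2). The shares of all genes past 2-fold given above apply to these counts and to those of macrophages and B cells.

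**Figure D4:**
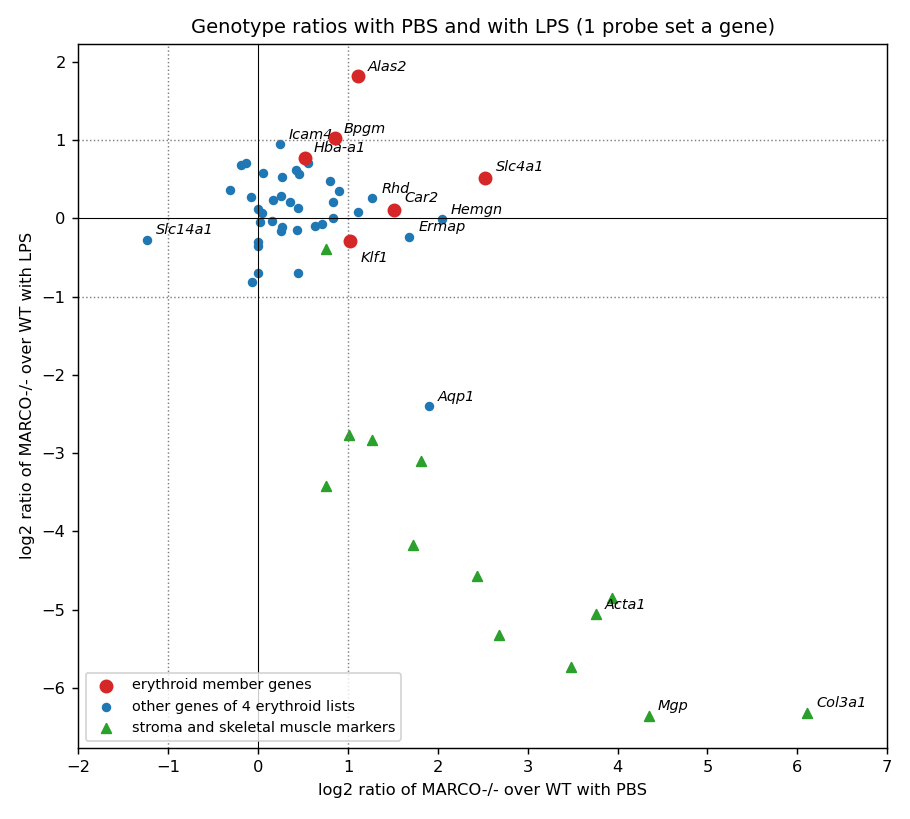
Genotype log2 ratios, MARCO-/- over WT, with PBS along the horizontal and with LPS along the vertical axis; a point stands for 1 gene (brightest probe set), dotted lines mark 2-fold, and genes with no value above the median of all intensities are left out. The erythroid genes (red and blue) lie at -0.81 or above with LPS apart from Aqp1 at -2.40, while the stroma and muscle markers (green) reach -6.35.

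The genes with the most similar profiles were sought by the Euclidean distance between log2 profiles over the 4 arrays, each centred on its own mean, among 1592 genes with a highest log2 intensity of at least 8. The 5 closest to Hba-a1 were Glipr1 (distance 0.18), Hbb-b2 (0.18), Lilrb4a (0.22), Laptm4a (0.27) and S100a11 (0.27). Hbb-b2 was the one globin among them, and no other measured globin beside Hba-a1 was bright enough to be a candidate. The other genes are made by leukocytes. Slc4a1, Bpgm, Fech, Hemgn, Ermap and Rhd fell under the required intensity, so they could not appear for Hba-a1 or for Alas2. The 5 closest to Alas2 were Slpi (0.59), Acp5 (0.83), Mycbp2 (0.87), Grk3 (0.89) and Jchain (0.90), at larger distances than for Hba-a1. Slpi, a protease inhibitor, had 420 in MARCO-/- and 202 in WT with PBS, and 481 in MARCO-/- and 136 in WT with LPS. A profile of 4 values is short, so the distances describe these arrays only.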

How the data were processed

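RNA of splenic DC was hybridized to Affymetrix Mouse Genome arrays, with 1 array for each of 4 conditions. The deposited intensities had been background-corrected, normalized and summarized per probe set by the authors with RMAexpress, and are on a linear scale. Sources used here give no RMAexpress version. Values were put on the log2 scale without an offset. The methods describe 3 DC pools for each genotype but not which ones supplied the array RNA.

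After 104 Affymetrix controls were removed from 45141 probe sets, 28898 of the others had exactly 1 gene symbol in the platform annotation. A gene was represented by its brightest probe set, by mean log2 over the arrays. There was no test, since each condition has 1 array, and the number of arrays limits the precision. The members and the 17 gene lists used beside them were chosen with earlier results of these data known. The named genes were all members, some of the list genes past 2-fold in any comparison with a value above the median of all intensities, and the 5 genes closest in profile to Hba-a1 and to Alas2. Not every list gene past 2-fold is named. Genes given as background values under 2-fold were named after their values were seen. Counts were repeated after median centring, quantile normalization, cyclic loess, an offset of 16, filters on low values, thresholds of 1.5-fold and 3-fold, and other choices of probe sets. The calling step was run on simulated data with little noise and planted differences larger than 2-fold. This checks the code and says nothing about the calls on these arrays. Normalizations were run with limma 3.58.1 in R 4.3.3, and the rest with pandas 2.3.3 and numpy 2.4.6 in Python 3.11.15. Figures were drawn with matplotlib 3.10.9.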

Additional observations from a re-analysis of the deposited data

Results flagged for a closer look

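These values had opposite signs in the 2 genotypes or the 2 treatments. With 1 array per condition none of the differences was tested. For Car2, the log2 ratio of LPS over PBS was -0.64 in MARCO-/- and 0.76 in WT, a difference of -1.40. For Klf1 it was -1.27 in MARCO-/- and 0.04 in WT, and the ratio of MARCO-/- over WT was -0.29 with LPS and 1.02 with PBS, a difference of -1.31 in either view, and the WT ratio changed sign when the arrays were centred on their medians. For the brightest probe set of Hba-a1 the log2 ratio of LPS over PBS was 0.11 in MARCO-/- and -0.14 in WT (difference 0.25), and for a second one it was 0.17 in MARCO-/- and -0.10 in WT (difference 0.28). The dim probe set of Slc4a1, below the background on every array, had log2 ratios of LPS over PBS of -0.21 in MARCO-/- and 0.33 in WT, and of MARCO-/- over WT of -0.23 with LPS and 0.31 with PBS (difference -0.54).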

How the results depend on the processing

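No paired analysis was possible because each condition has 1 array. No replicate could be left out, for the same reason. Counts and ratios within a factor of 1.5 were treated as unchanged. Under the 3 other scalings, 3 to 4 erythroid probe sets were past 2-fold between genotypes with PBS and 2 to 4 with LPS, and 3 were past 2-fold for LPS over PBS in MARCO-/- and 3 to 4 in WT. An offset of 16 on the linear scale left 2 and 0 between genotypes with PBS and with LPS, and for LPS over PBS it left 1 in MARCO-/- and 0 in WT. Of the 3 probe sets with a log2 intensity of at least 8, all of Hba-a1, 0 passed in any comparison. At 1.5-fold there were 8 and 7 between genotypes with PBS and with LPS, all upward. For LPS over PBS there were 6 in MARCO-/-, all lower, and in WT 5 were lower and 1 higher (Car2). At 3-fold there was 1 between genotypes with PBS and 2 with LPS. For LPS over PBS there was 1 in MARCO-/- and 0 in WT. The shares of all probe sets past 1.5-fold and 3-fold were not computed. Without probe sets named x_at, s_at or a_at, 1 of 5 passed between genotypes with LPS, and the median difference of the LPS ratios, MARCO-/- minus WT, was -1.35 over 4 genes, against -0.57 over 6. With 1 probe set per gene, 2 passed for LPS over PBS in WT. Of 40 repeated counts of erythroid probe sets, 24 stayed within the factor of 1.5 and 16 moved. Of 54 medians over the member genes, 53 moved by less than 1.5-fold, as did 155 of 170 values of single genes, and none past 2-fold changed sign. Some single-gene values could not move. Alas2, Klf1 and Car2 have 1 probe set each, so a mean over probe sets leaves them as they were. Leaving out x_at, s_at and a_at likewise left Slc4a1, Klf1 and Car2 unchanged. The factor of 1.5 is wide beside the smaller medians. The median of LPS over PBS in WT, -0.52, was -0.14 without Alas2, Bpgm or Slc4a1. It was -0.91 without Hba-a1, Klf1 or Car2, so it depended on single members. The offset, which compresses low intensities by its construction, took the log2 ratio of Klf1 with PBS to 0.33. It took that of Alas2 to 0.70 with PBS and 0.90 with LPS.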
